A study of Ettlia oleoabundans with 10 samples.

Results

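Ettlia oleoabundans is an oil-forming green alga that lives as single cells. In its cultures 187 of 10122 scaffold families, or 1.85%, had levels that lay to one side of the unstressed cultures when nitrate was scarce and to the other side in high salt. In 91 of them, called starvation-high, salt-low here, the level was higher than in nitrate-replete cultures when nitrate was scarce and lower when NaCl was high. The other 96, called starvation-low, salt-high, had the reverse pattern. The families were chosen by their measured values. With L = log2(value + 1), the mean L of the starved cultures and the mean L of the high-salt cultures each had to lie at least 0.8, or 1.74-fold, from the mean L of the replete cultures, on opposite sides. The pattern in those 7 cultures is therefore what defined the members, and their values there are given as a description without a test.

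The cultures were all of strain UTEX # 1185 and were grown on light for 6 days. The starved cultures had 0 mM and 0.38 mM nitrate. The high-salt cultures had 300 mM and 600 mM NaCl. The replete cultures had 1.5 mM nitrate, 3 mM nitrate, and 9 mM nitrate with 42 mM NaCl, the last being the control. Cultures with 0.75 mM nitrate, 75 mM NaCl and 150 mM NaCl played no part in choosing the families. Apart from the control, a NaCl culture has no nitrate concentration in its label, and a nitrate culture has no NaCl concentration. Each condition had 1 poly(A)-selected library, so no value has a replicate error and no difference between conditions has a test. The replete cultures differed in nitrate and are not replicates of each other. Beside each family, the range of its 3 replete values gives a measure of how far cultures without either stress lay apart.

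Nitrate is the main nitrogen source of many green algae. When it runs out, algae as a group are known to stop dividing, to recycle nitrogen from proteins and chlorophyll, and to turn fixed carbon into starch and oil. High salt is known to draw water from the cells and load them with sodium, and algae respond with compatible solutes and ion export. Both stresses slow growth, and both are used to raise oil content in algal cultures. The deposited table carries numeric identifiers only, with no gene names, so roles of the families described here are not given.

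Library totals, the sums of the deposited values, were lowest at 0.38 mM nitrate, with 362924, and highest at 300 mM NaCl, with 695913. Read depth is unknown, because the table holds no read counts and its values look scaled, and a value of 0 is given as listed at 0. The median over all families of L minus the replete mean was 0.11, -0.02 and 0.06 at 0, 0.38 and 0.75 mM nitrate. It was 0.18, 0.23, 0.18 and 0.09 at 75, 150, 300 and 600 mM NaCl. The title codes of 2 libraries, 0.38 mM nitrate and 150 mM NaCl, start with RAA and those of the other 8 start with c. The labels do not say what the codes mean. Values of those libraries are given beside results that rest on them.

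Against the whole table the opposite families were few. Of all families, 0.899% were starvation-high, salt-low and 0.948% were starvation-low, salt-high. Taken singly, the starvation threshold was passed upward by 11.0% of families and downward by 12.7%, and the salt threshold by 23.7% upward and 12.3% downward. Scaling by median ratios gave 97 and 88 families, with 86 and 83 of the members retained. Scaling every library to the same total gave 153 starvation-high, salt-low families and 53 with the reverse pattern, so that the first direction made up 74.3% of the members in place of 48.7%. Without the 0 mM nitrate library the rule found 156 and 204 families, of which 71 and 84 were members with all 7 libraries. Without the 0.38 mM library it found 116 and 86, of which 64 and 69 were.

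**Figure D1:**
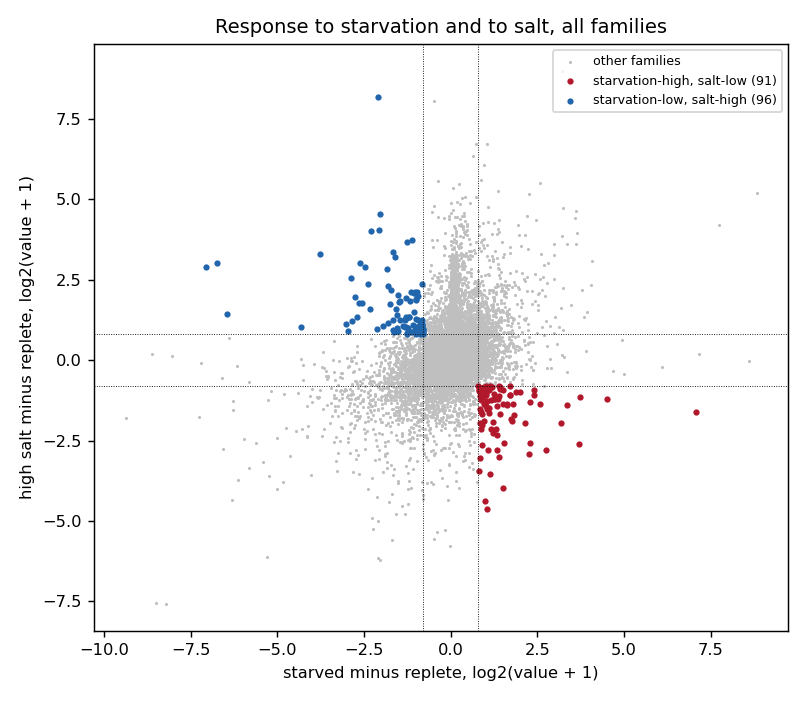
Each point is 1 of the 10122 families, with the starved minus replete mean on the x axis and the high-salt minus replete mean on the y axis, both in log2(value + 1). Dotted lines mark the threshold of 0.8, red points are the 91 starvation-high, salt-low families and blue points the 96 starvation-low, salt-high families, most of which lie close to the thresholds.

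Most members lay within a few fold of the replete cultures. The median starved level of the 91 starvation-high, salt-low families was 2.30-fold the replete level, with the middle 50% of families between 1.97-fold and 3.19-fold. In high salt the median family was at 0.391 of the replete level, with quartiles of 0.259 and 0.500. Among the 96 families of the other direction the median starved level was 0.414 of the replete level and the median high-salt level 2.38-fold the replete level. Both differences were at least 2-fold in 50 families of the first direction and 57 of the second, and both were at least 4-fold in 4 and 11. The replete values themselves spanned a median of 0.50 log2 units in the first direction and 0.51 in the second, against 0.33 over all families.

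The starvation-high, salt-low family with the largest smaller-of-both differences was 4418_c0. The starved cultures had 45.99 and 409.31, in order of concentration, and the high-salt cultures 1.6 and 2.5, against 17.12, 18.42 and 24.57 in the replete cultures. On the log2 scale it stood 2.74 above the replete mean under starvation and 2.79 below it in high salt. In the cultures outside the rule it did not follow the salt pattern, with 56.18 at 0.75 mM nitrate and with 16.49 and 99.02 at 75 and 150 mM NaCl. The 2 libraries with RAA codes thus held its 2 highest values.

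Family 533_c0 combined a high level with wide differences. It had 1060.24, 1417.94 and 848.34 at 0, 0.38 and 0.75 mM nitrate, then 64.52, 71.08 and 178.22 at 1.5, 3 and 9 mM. The NaCl series from 75 to 600 mM read 44.97, 56.17, 16.58 and 12.46. Every low-nitrate culture lay above every replete one, and every NaCl culture from 75 mM upward lay below every replete one. Its starved level was 12.97-fold the replete level, and its high-salt level was 6.15-fold lower than the replete level, on the log2(value + 1) scale.

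The widest starvation response of either direction among the named families belonged to 906_c0. Its level was 548.4, 1433.84 and 2090.66 at 0, 0.38 and 0.75 mM nitrate, against 6.03, 4.65 and 6.06 at 1.5, 3 and 9 mM. The low-nitrate and replete cultures did not overlap, and the highest value was at 0.75 mM, a culture outside the rule. NaCl cultures from 75 to 600 mM had 2.78, 3.23, 1.43 and 0.88. The starved mean was 7.08 log2 units above the replete mean, and the high-salt mean was 1.61 below it.

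Family 2405_c0 had 386.11, 291.4 and 273.45 at 0, 0.38 and 0.75 mM nitrate, against 38.1, 23.52 and 51.49 at 1.5, 3 and 9 mM. Its level was 40.31 at 75 mM and 36.11 at 150 mM NaCl, inside the replete range, and then 18.2 at 300 mM and 3.77 at 600 mM. The salt pattern of this family thus appeared between 150 and 300 mM. Family 2303_c0 had 191.88, 659.49 and 177.88 at 0, 0.38 and 0.75 mM nitrate, and its high-salt values were 9.72 and 7.94, against 57.5 to 93.31 in the replete cultures. At 150 mM NaCl, however, it had 171.31, above every replete culture, and at 75 mM it had 66.86.

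In 4 more of the 10 leading families the libraries of a level lay far apart or at low values. Family 5161_c0 had 145.5 at 0 mM nitrate but 10.03 at 0.38 mM, close to the replete 6.09 to 9.2. It had 24.69 at 75 mM and 20.32 at 150 mM NaCl, above the replete range, and 0.39 at both 300 and 600 mM. Family 3262_c0 had 217.86 without nitrate but 11.67 at 0.38 mM, inside the replete range of 9.32 to 19.94, and its high-salt values were 3.24 and 3.86. For both families the starvation difference rested on the culture without nitrate. Family 11254_c0 had 38.31 at 0 mM and 2.55 at 0.38 mM nitrate against 1.18 to 5.14 in replete cultures, and it was listed at 0 at 300 and 600 mM NaCl. Family 8422_c0 had 12.13 and 38.68 at 0 and 0.38 mM nitrate and 0.33 and 1.49 at 300 and 600 mM NaCl, against 4.57 to 6.81 in replete cultures.

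The last of these 10 families, 4461_c0, was higher in every low-nitrate culture than in every replete one, with 77.15, 41.01 and 46.61 at 0, 0.38 and 0.75 mM against 9.78 to 13.68. It also stood above the replete range at 75 mM NaCl, with 28.46, and at 150 mM, with 27.62. At 300 mM it had 4.39 and at 600 mM 1.04, so that the NaCl series held values on both sides of the replete cultures.

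The most abundant starvation-high, salt-low family was 41_c0. It had 714.99, 1352.77 and 703.83 at 0, 0.38 and 0.75 mM nitrate, and 297.32, 319.39 and 581.12 at 1.5, 3 and 9 mM. In the NaCl series it had 694.65 at 75 mM and 1142.8 at 150 mM, but 147.22 at 300 mM and 181.18 at 600 mM. The value at 150 mM NaCl lay in the range of the low-nitrate cultures and that at 75 mM just below it, both above every replete culture. Those at 300 and 600 mM lay below every replete culture.

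**Figure D2:**
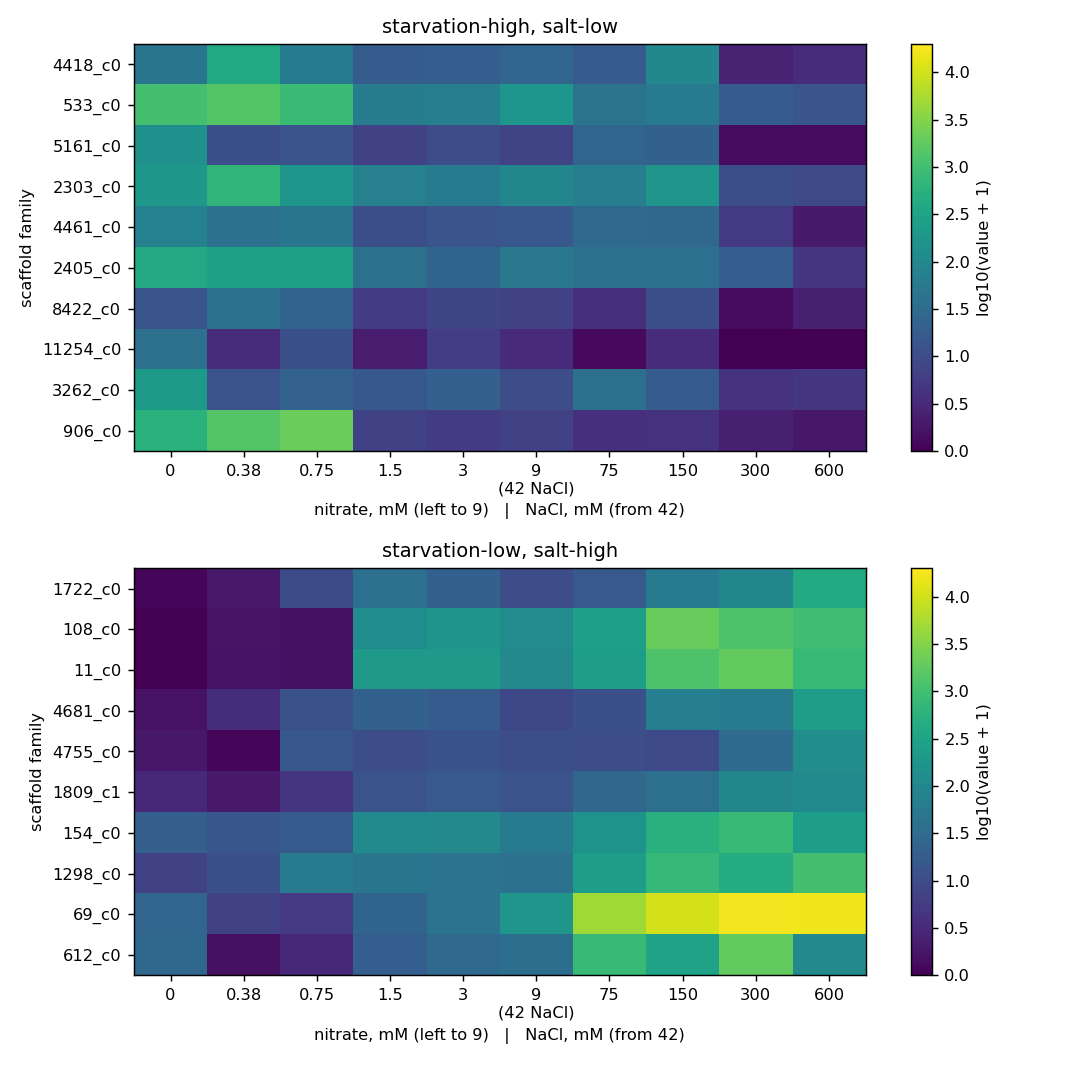
Level of the 10 families with the largest smaller-of-both differences in each direction, among members with a mean value of at least 5, as color on a log10(value + 1) scale. Columns run from 0 to 9 mM nitrate and on through 75 to 600 mM NaCl, the column of 9 mM nitrate being the control with 42 mM NaCl, and 69_c0 is the brightest row, with 16709.25 at 300 mM NaCl.

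Among the starvation-low, salt-high families, 1722_c0 had the largest smaller-of-both differences. Its level was 0.13 and 0.96 at 0 and 0.38 mM nitrate and 91.39 and 420.59 at 300 and 600 mM NaCl, against 35.74, 20.6 and 9.41 at 1.5, 3 and 9 mM nitrate. It stood 3.76 log2 units below the replete mean under starvation and 3.29 above it in high salt. The replete cultures themselves spanned 1.82 log2 units, the control being the lowest. Outside the rule it had 8.24 at 0.75 mM nitrate, and 14.63 and 56.99 at 75 and 150 mM NaCl.

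Families 108_c0 and 11_c0 had nearly the same profile, and at every low-nitrate concentration they were close to 0. Family 108_c0 was listed at 0 at 0 mM nitrate and had 0.66 at 0.38 mM and 0.56 at 0.75 mM, against 123.05, 168.83 and 118.91 at 1.5, 3 and 9 mM. It had 268.96, 2021.59, 1271.61 and 944.57 at 75, 150, 300 and 600 mM NaCl. Family 11_c0 was listed at 0 at 0 mM nitrate and had 0.6 and 0.59 at 0.38 and 0.75 mM, against 212.27, 214.34 and 103.2 at 1.5, 3 and 9 mM. Its NaCl values were 253.02, 1279.29, 1880.89 and 825.72 at 75, 150, 300 and 600 mM. In both, the low-nitrate, replete and salt cultures formed groups that did not overlap, and the level at 600 mM was below that at 300 mM.

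The most abundant of all members was 69_c0. From 75 to 600 mM NaCl it had 4780.85, 10677.56, 16709.25 and 16069.19, against 173.51 in the control. The other nitrate cultures were also far below the control, with 23.8, 6.01, 4.18, 23.4 and 41.81 from 0 to 3 mM. The value at 0 mM therefore lay at the lower edge of the replete cultures, which spanned 2.84 log2 units, and the starvation difference was -2.10. It was smaller in size without the 0.38 mM culture or without the control, where the smaller of its differences was 1.19 and 1.29, both still past the threshold. The high-salt difference was 8.17.

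Family 77_c0 was abundant in every culture. Its level was 606.41, 740.47 and 382.18 at 0, 0.38 and 0.75 mM nitrate, against 1416.48, 2171.48 and 2221.97 at 1.5, 3 and 9 mM. In the NaCl series it was 2851.09, 8196.31, 5824.9 and 7485.38 at 75, 150, 300 and 600 mM. Low-nitrate, replete and NaCl cultures formed 3 groups without overlap.

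Family 154_c0 had 18.97, 13.09 and 15.31 at 0, 0.38 and 0.75 mM nitrate, against 110.75, 103.14 and 57.21 at 1.5, 3 and 9 mM, and then 162.94, 543.38, 777.73 and 261.23 at 75 to 600 mM NaCl. Like 77_c0 it separated low-nitrate, replete and NaCl cultures completely. Family 1809_c1 did so too, with 2.15, 0.96 and 3.35 at low nitrate, 11.62 to 15.08 in replete cultures, and 25.32, 37.33, 92.14 and 110.85 at 75, 150, 300 and 600 mM NaCl.

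In other leading families 0.75 mM nitrate was not low. Family 1298_c0 had 6.06 and 10.36 at 0 and 0.38 mM nitrate but 60.76 at 0.75 mM, above the 40.97 to 46.22 of the replete cultures, and its NaCl values were 253.93, 722.08, 463.62 and 1070.71 at 75, 150, 300 and 600 mM. Family 4755_c0 had 0.89, 0.2 and 13.98 at 0, 0.38 and 0.75 mM, against 9.48 to 10.95 in replete cultures, and was above them in salt only at 300 mM, with 30.66, and 600 mM, with 133.7. Family 4681_c0 had 0.6 and 2.61 in the starved cultures and 10.82 at 0.75 mM, inside the replete range of 7.69 to 20.34. It had 10.14 at 75 mM NaCl, also inside that range, and 71.03, 57.42 and 248.58 at 150, 300 and 600 mM.

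Family 612_c0 had a jagged NaCl series, which read 828.65, 297.51, 1878.94 and 106.2 from 75 to 600 mM, all above the replete 17.97 to 34.69. Under starvation it had 0.55 at 0.38 mM nitrate but 26.12 at 0 mM, within the replete range, and it had 2.17 at 0.75 mM. Its low side therefore rested on the 0.38 mM and 0.75 mM cultures, of which only the first entered the rule.

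Summed over members, the starvation-low, salt-high families took 0.458% and 0.538% of the library total in the starved cultures, by concentration, and 5.86% and 7.15% in the high-salt cultures, against 1.21% to 1.50% in replete libraries. Much of this was 69_c0 and 77_c0. Without both, the share was 2.62% and 3.03% in high salt and 0.352% and 0.332% in starvation, against 0.904% to 0.998% in replete libraries. The starvation-high, salt-low families took 1.36% and 2.91% at 0 and 0.38 mM nitrate and 0.126% and 0.132% at 300 and 600 mM NaCl, against 0.433% to 0.587% in replete libraries. The direction of these shares follows from the rule, which used these cultures. At 0.75 mM nitrate, 75 mM and 150 mM NaCl, outside the rule, the starvation-low, salt-high share was 0.822%, 2.96% and 5.35%. Without 69_c0 and 77_c0 it was 0.741%, 1.67% and 2.24%. The starvation-high, salt-low share there was 1.66%, 0.447% and 0.605%, the last above every replete library. Family 41_c0 alone made up 31.2% of that sum at 150 mM NaCl, against 13.8% to 20.8% in replete libraries. Family 906_c0 made up 26.5% of the sum at 0.75 mM nitrate. Shares without these families were not computed. All are shares of summed deposited values, not of reads.

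A 2-fold comparison that used none of the 7 libraries of the rule was available between 0.75 mM nitrate and the milder salt cultures. The median difference of L, 0.75 mM nitrate minus 75 mM NaCl, was 1.10 over the 91 starvation-high, salt-low families, with quartiles of 0.51 and 2.43. It was -1.16 over the 96 starvation-low, salt-high families, with quartiles of -1.93 and -0.53, and -0.12 over all families. Against 150 mM NaCl the medians were 1.13, -1.32 and -0.14. In both comparisons the 2 directions thus lay on opposite sides of the whole table.

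By count, 49 of the 91 starvation-high, salt-low families were at least 2-fold higher at 0.75 mM nitrate than at 75 mM NaCl, as were 6.87% of all families. Against 150 mM NaCl the count was again 49, beside 10.7% of all families. Both comparisons passed in 44 of the 91, beside 5.37% of all. Of the 96 starvation-low, salt-high families, 51 were at least 2-fold lower at 0.75 mM nitrate than at 75 mM NaCl, beside 9.60% of all families, and 60 were lower than at 150 mM NaCl, beside 17.5%. Both passed in 47 of the 96, beside 7.52% of all. Going the other way by at least 2-fold were 2 and 4 of the 91 families, against 75 and 150 mM NaCl in turn, and 2 and 6 of the 96.

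These shares were also set beside families past the starvation threshold whose high-salt mean lay within the threshold. Among 574 families that passed the starvation threshold upward with high salt within 0.8 of the replete mean, 13.8% were at least 2-fold higher at 0.75 mM nitrate than at 75 mM NaCl and 13.4% than at 150 mM NaCl. In the starvation-high, salt-low families both shares were 53.8%. Among 642 families that passed the threshold downward with salt within 0.8, 31.6% and 25.4% were at least 2-fold lower, beside 53.1% and 62.5% of the starvation-low, salt-high families. With 1 library a condition these are descriptions of the libraries. The sets differ by construction in their levels at 300 and 600 mM NaCl. They were not without differences in milder salt, since 31.5% of the 574 families were at least 2-fold above the replete mean at 150 mM NaCl and 16.5% of the 642 were at least 2-fold below it.

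**Figure D3:**
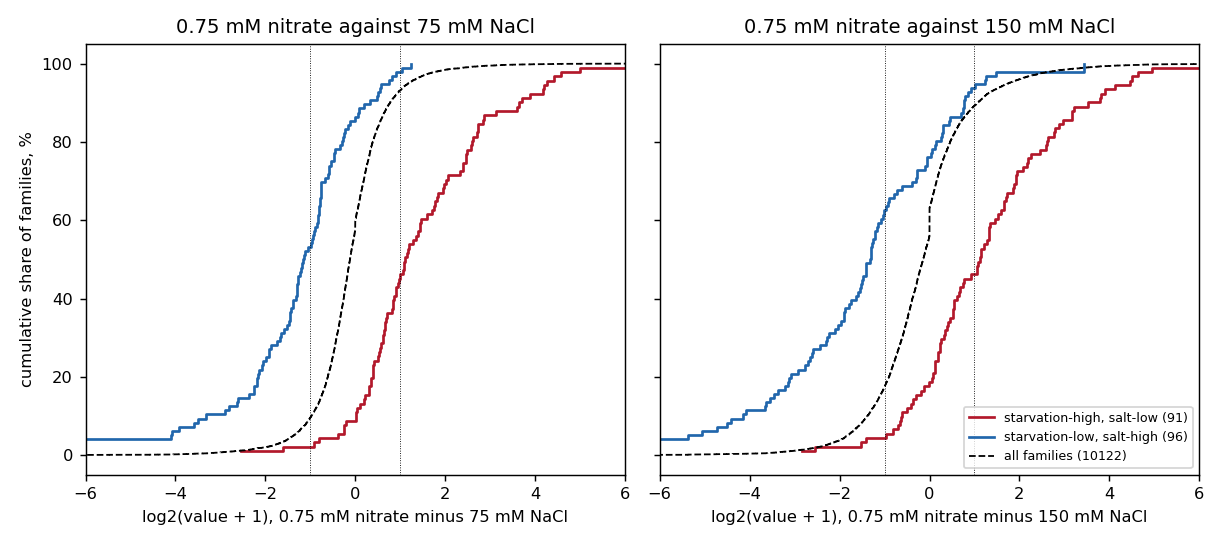
Cumulative share of families, in percent, by the difference of log2(value + 1) between 0.75 mM nitrate and 75 mM NaCl (left) or 150 mM NaCl (right), 3 libraries that the rule did not use, with dotted lines at a 2-fold difference. The red line of the 91 starvation-high, salt-low families runs to the right of the dashed line of all families and the blue line of the 96 starvation-low, salt-high families to its left, with medians of 1.10 and -1.16 in the left panel. Differences beyond 6 log2 units on either side are not drawn.

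Relative to the replete mean, which the rule shares, the cultures outside the rule placed the members as follows. At 0.75 mM nitrate the starvation-high, salt-low families had a median of 0.90 log2 units, and 43 of 91 were at least 2-fold higher, beside 6.62% of all families. In the starvation-low, salt-high families the median was -0.45, and 20 of 96, or 20.8%, were at least 2-fold lower, beside 3.59% of all. With high salt within the threshold, 23.2% of the 574 starvation-raised families were that much higher and 24.5% of the 642 starvation-lowered families that much lower. In 67 of the 96 families, or 69.8%, 0.75 mM had the highest value of the 3 low-nitrate cultures, as it did in 28.6% of all families. The rule favours this, since it chose them as low at 0 and 0.38 mM, and 73.1% of the 642 families had it too. In the first direction 11 of 91 had their highest low-nitrate value at 0.75 mM, and 51 had it at 0.38 mM, beside 21.7% of all families. Among the 574 families raised under starvation with high salt within the threshold, 42.7% had it at 0.38 mM.

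In milder salt the whole table lay above the replete mean, by medians of 0.18 at 75 mM and 0.23 at 150 mM NaCl, so both directions are given beside it. In the starvation-low, salt-high families the median of L minus the replete mean was 0.56, 0.84, 1.33 and 1.47 at 75, 150, 300 and 600 mM NaCl. At 75 mM 23 of 96 were at least 2-fold above the replete mean, beside 6.56% of all families, and at 150 mM 43 were, beside 16.8%. In the starvation-high, salt-low families the medians were -0.26, 0.09, -1.23 and -1.62. At 75 mM 11 of 91 were at least 2-fold below the replete mean, beside 1.74% of all, and at 150 mM 14 were, beside 6.73%. At 75 mM 48 of the 91 lay below the replete range, beside 16.4% of all families, and 69 of the 96 families of the other direction lay above it, beside 50.2% of all. Set against the whole table, the counts at 75 mM therefore do not show that the salt-high side appeared at a lower concentration than the salt-low side. At 150 mM the salt-low side was mixed, with 35 of the 91 below the replete range and 35 above it, beside 22.3% and 52.6% of all. Of the 96 families, 11 lay below that range and 70 above it.

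**Figure D4:**
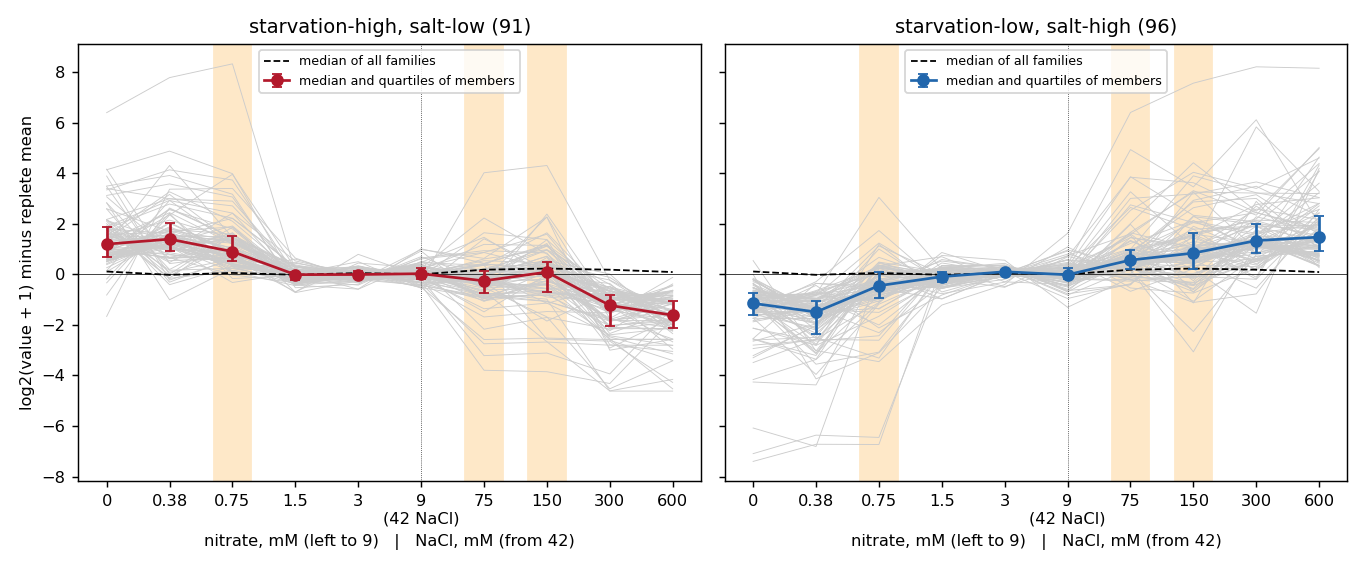
L minus the replete mean, in log2(value + 1), for each starvation-high, salt-low family (left, 91) and each starvation-low, salt-high family (right, 96) as grey lines, across nitrate from 0 to 9 mM and NaCl from 42 to 600 mM, with members' median and quartiles in color and the median of all families dashed. Shaded columns are the 3 cultures outside the rule, where the medians were 0.90, -0.26 and 0.09 on the left and -0.45, 0.56 and 0.84 on the right.

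At 150 mM NaCl 13 starvation-high, salt-low families, or 14.3%, were at least 2-fold above the replete mean, the side opposite to that of 300 and 600 mM. This was a smaller share than the 16.8% of all families. In 58 of the 91 families, or 63.7%, 150 mM had the highest value of the 4 NaCl cultures, beside 32.9% of all. The rule favours this, since it chose the families by low levels at 300 and 600 mM. Among the 574 families raised under starvation with high salt within the threshold, 59.8% also had it at 150 mM. Of the 13 families, 6928_c0 was the most extreme, with 79.74 at 75 mM and 97.5 at 150 mM NaCl. It then had 3.23 at 300 mM and 0.47 at 600 mM, against 3.2 to 4.96 in replete cultures. Under low nitrate it had 40.78, 8.57 and 12.86 at 0, 0.38 and 0.75 mM, so that it was above the replete range in 5 of the 7 stressed cultures. Family 13580_c0 was not among the 13. It belonged to the 6 members at least 2-fold above the replete mean at 75 mM NaCl, or 6.59%, near the 6.56% of all families. It had 18.99 at 75 mM NaCl, 6.45 at 150 mM and 0.88 at 300 mM, and was listed at 0 at 600 mM. Its replete values were 1.64 to 4.82, and it had 18.11 at 0 mM nitrate and 3.52 at 0.38 mM.

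Family 5123_c0 was high only in the libraries with RAA codes. They held 57.43 (0.38 mM nitrate) and 56.08 (150 mM NaCl), against 9.51 to 10.87 in replete cultures. In all other stressed cultures it was below the replete range, with 8.64 and 8.76 at 0 and 0.75 mM nitrate and 5.68, 3.79 and 6.01 at 75, 300 and 600 mM NaCl. Of the 13 families at least 2-fold above the replete mean at 150 mM NaCl, 4 also had a value at 0.38 mM at least 2-fold above that at 0 mM nitrate. Among all 91 families 25, or 27.5%, had such a value, beside 7.64% of the whole table, so the 4 of 13 lay near the members' own share. The part of the codes in these values was not tested.

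In the starvation-low, salt-high direction 5 families, or 5.21%, were at least 2-fold below the replete mean at 150 mM NaCl, a smaller share than the 6.73% of all. In 4 of these the 0.38 mM library was at least 2-fold below that of 0 mM. Among all 96 families of this direction that was so in 25, or 26%, beside 15.9% of the whole table. Family 1099_c0 had 15.72 at 150 mM NaCl, against 155.88, 325.88 and 232.26 at 75, 300 and 600 mM. It had 14.91 at 0.38 mM nitrate, against 63.13 at 0 mM and 179.53 at 0.75 mM, and 117.22 to 165.69 in replete cultures. Families 3183_c0 and 1122_c0 showed the same dips, to 7.22 and 26.98 at 150 mM NaCl and to 4.65 and 8 at 0.38 mM nitrate. Their replete values were 23.28 to 63.39 and 49.11 to 67.29.

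At least 2-fold above the replete mean at 0.75 mM nitrate were 5 starvation-low, salt-high families, or 5.21%, a smaller share than the 6.62% of all. Family 3183_c0 was among them too, with 88.4. Family 4724_c0 had 94.87 at 0.75 mM, against 3.99 and 5.75 at 0 and 0.38 mM and 7.32 to 13.21 in replete cultures. Its NaCl values from 75 to 600 mM were 167.89, 57.67, 48.11 and 15.17, highest at the mildest concentration. Families 13100_c0 and 13324_c0 had 8.01 and 10.37 at 0.75 mM nitrate, against highest replete values of 2.28 and 4.41.

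Cultures of the same level did not always agree on a member. Both starved cultures lay at least 0.8 from the replete mean in 44 of 91 starvation-high, salt-low families, beside 4.96% of all families on that side, and both high-salt cultures did in 57, beside 6.96%. In the other direction 57 and 52 of 96 families met these conditions, beside 8.28% and 13.8% of all. The families past the starvation threshold with high salt within it had starved shares of 42% upward and 62.1% downward, against 48.4% and 59.4% of the members. The rule itself used these cultures. All 4 stressed cultures of the rule passed on their own in 27 and 32 families, 0.267% and 0.316% of the table. The 0 mM and 0.38 mM cultures differed at least 2-fold from each other in 41 of 91 and 31 of 96 families. Over all families the 0 mM value was at least 2-fold the higher in 15.9% and the lower in 7.64%. The cultures of 300 and 600 mM NaCl differed at least 2-fold in 22 and 40 members, and over all families the 600 mM value was the higher in 17.2% and the lower in 10.4%. Starved, replete and high-salt cultures had no overlap at all in 70 of the 91 and 74 of the 96, beside 3.00% and 2.49% of all families, counts that the rule itself favours.

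The sign of the difference within the starved level was opposite in the 2 directions. The median of L at 0 mM minus 0.38 mM nitrate was -0.40 in the starvation-high, salt-low families and 0.36 in the starvation-low, salt-high families, beside 0.22 over all families. By these medians the 0.38 mM culture, whose library has an RAA code, was the further from replete in both. Among the 574 and 642 families with high salt within the threshold the medians were 0.09 and 0.39. For 600 mM minus 300 mM NaCl the medians of the 91 and 96 families were -0.21 and -0.01, beside -0.07 over all families. In 48 of the 91 families the lowest of the 4 NaCl values was at 600 mM and in 39 it was at 300 mM, beside 36.9% and 20.8% of all families. Of the 96 families, 42 had their highest NaCl value at 300 mM and 40 at 600 mM, beside 23% and 25.9% of all. The rule favours both, since it used these 2 cultures.

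**Figure D5:**
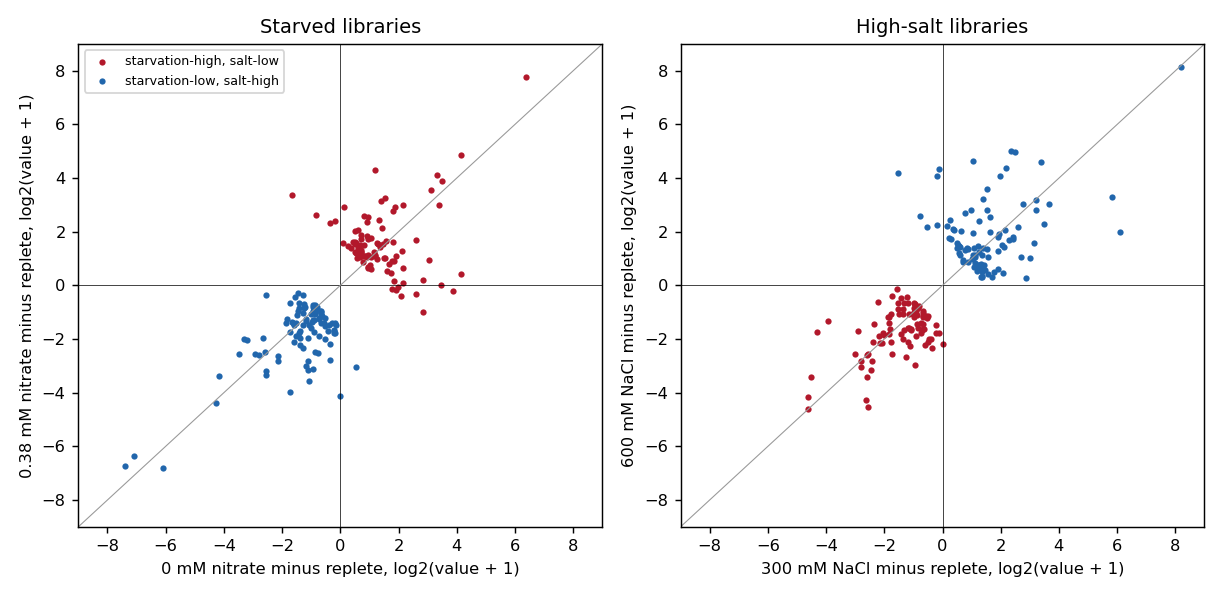
L minus the replete mean at 0 mM (x) against 0.38 mM nitrate (y) on the left and at 300 mM (x) against 600 mM NaCl (y) on the right, in log2(value + 1), for the 91 starvation-high, salt-low (red) and 96 starvation-low, salt-high (blue) families. The diagonal marks equal values, and points far from it are among the 41 and 31 families whose starved cultures, or the 22 and 40 whose high-salt cultures, differed at least 2-fold.

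Members of the starvation-low, salt-high direction had the higher deposited values. Their mean value over the 10 libraries had a median of 44.8, against 25.1 for the other direction and 17.5 for all families, and 29 of 96 had a mean of at least 100, against 7 of 91 and 8.80% of all. The logarithm of value + 1 keeps families of very low level from reaching the threshold, which bears on this comparison with the whole table. The mean also includes the starved and high-salt cultures by which members were chosen, which bears on the comparison between directions. How far it does was not tested. With high salt within the threshold, the median was 18.2 for the 574 starvation-raised families and 30.9 for the 642 starvation-lowered families. Of these, 6.79% and 18.7% had a mean of at least 100. No minimum level was applied, and all 187 members are counted throughout. A mean of at least 5 was met by 81 of the 91, or 89%, and 90 of the 96, or 93.8%, beside 76.1% of all families. Among the 574 and 642 families it was met by 82.9% and 86%.

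Some members shared the number in their identifier with another family of the table. This was so in 7 of the 91 and 3 of the 96, or 7.69% and 3.12%, near the 4.92% of all families, and no member shared it with another member. The partner families did not pass the rule. Family 169_c2 had 3.25 and 1.56 at 0 and 0.38 mM nitrate and 823.8 and 735.66 at 300 and 600 mM NaCl, against 207.69 to 341.56 in replete cultures. At 0.75 mM nitrate it had 297.55, inside the replete range. Its partner 169_c1 had differences of 0.46 under starvation and 0.53 in high salt, where those of 169_c2 were -6.44 and 1.44. For 332_c1, of the other direction, they were 3.35 and -1.40, and for its partner 332_c0 they were 0.49 and 0.59. These 4 families were chosen after their values were seen.

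At the edge of the rule the values were modest. Just inside it, the starvation-high, salt-low families 6029_c0 and 5325_c0 had high-salt differences of -0.80 in both and starvation differences of 1.40 and 0.80. Just outside it, 13119_c0 and 3780_c0 had 2.70 and 0.94 under starvation but -0.80 and -0.79 in high salt, the first missing 0.8 before rounding. In the other direction 505_c0 and 762_c0 were just inside, with starvation differences of -1.25 and -0.80 and high-salt differences of 0.80 and 0.97. Families 24424_c0 and 3938_c0 were just outside, the first with -0.80 under starvation, again short of the threshold before rounding, and the second with 0.79 in high salt.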

How the data were processed

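The deposited values are an expression signal, never negative and with 2 decimals, 1 per scaffold family and library, and the values themselves look scaled by length and depth. No label or header says whether they are FPKM or TPM, which reference was used or how families were formed. Bowtie 0.12.8, RSEM 1.2.0 and edgeR 3.0.8 are named in the submitters' processing notes, with no role. Per the labels' protocols, cultures started at 1000000 cells per ml under 22 to 28 µmol photons m-2 s-1 at 25 °C.

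Differences are of log2(value + 1), computed with Python 3.11.15, pandas 2.3.3 and numpy 2.4.6, and understate changes of low families. With 1 library per condition no test was run, and 2-fold counts stand beside the share of all 10122 families. How many members the rule would call wrongly in libraries like these was not tested. Members, lists and tests were chosen with earlier results of these data known. Named are, per direction, the 10 members with the largest smaller difference and a mean of at least 5, the 3 most abundant, those at the threshold, members sharing a scaffold number with another member (there were none), and up to 3 per library outside the rule that were at least 2-fold the opposite way. Alternatives were scalings, pseudocounts, a minimum level, thresholds, and each of the 7 libraries of the rule left out in turn.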

Additional observations from a re-analysis of the deposited data

How the results depend on the processing

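No paired analysis was possible because each condition had 1 library and no comparison had a test. Members were recounted under 15 alternatives. Of all members, 18 of the 91 starvation-high, salt-low families and 22 of the 96 of the other direction were members under every alternative. Of 35 named families, chosen in part for large differences or high level, 17 were members under every alternative they entered. The direction of each median between 0.75 mM nitrate and NaCl held under all of them, with 0.85 to 1.74 against 75 mM and 0.58 to 1.68 against 150 mM in starvation-high, salt-low families, and -1.51 to -0.68 and -2.20 to -1.01 in the other direction. Shares of members at least 2-fold apart were 45.6% to 70.4% and 36.6% to 67.2% in the first direction, and 40.3% to 68.8% and 50.4% to 75% in the second. The shares of all families beside them were 3.44% to 10.9% and 6.39% to 15.1% for the first direction. For the second they were 5.78% to 16.8% and 11.0% to 20.2%.

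The counts moved more. Members change between alternatives, and scalings and pseudocounts also change the differences themselves. The shares of all families shifted too, as given above. The cause of each shift was not tested. In the order starvation-high, salt-low members, those at least 2-fold higher at 0.75 mM nitrate than at 75 and at 150 mM NaCl, then starvation-low, salt-high members and those at least 2-fold lower, equal library totals gave 153, 88, 77, 53, 31 and 33. A pseudocount of 0.1 gave 152 starvation-low, salt-high members, 77 of them lower than at 75 mM. A pseudocount of 5 gave 41, 19 and 15 in the first direction, with a median of 0.60 against 150 mM, and 59 members, 38 of them lower than at 150 mM, in the second. A threshold of 1.0 gave 50, 31 and 28, with a median of 1.65 against 75 mM, and 57 members, 38 lower than at 150 mM. A threshold of 0.6 gave 149 and 170 members, with medians of 0.83 against 150 mM in the first direction and -0.82 against 75 mM in the second. Requiring each library to pass gave 27, 19 and 17 and 32, 22 and 24, with medians of 1.74 against 75 mM in the first direction and -1.51 and -2.20 in the second. Median-ratio scaling gave a median of -1.04 against 150 mM in the second direction, and a mean of at least 5 gave 0.76 in the first.

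With each library of the rule left out in turn, members numbered 80 to 156 and 86 to 204, the highest without 0 mM nitrate. Those at least 2-fold apart from 75 mM NaCl numbered 46 to 82 and 40 to 92, and from 150 mM NaCl 40 to 78 and 51 to 105. Medians were 0.85 to 1.37 and -1.22 to -0.68 against 75 mM, and 0.58 to 1.68 and -1.34 to -1.01 against 150 mM. In 3 named families the smaller difference changed sides: 11254_c0 (range -0.0011 to 1.83) and 3262_c0 (-0.23 to 1.81) without 0 mM nitrate, and 5123_c0 (-0.19 to 1.11) without 0.38 mM. Read depth is unknown, so the counting error of low values could not be given.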

Other observations

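Some members met the rule through 1 library of a level while the other lay on the wrong side of the replete mean. This was so in 12 starvation-high, salt-low families for a starved culture, 4 of them at 0 mM and 8 at 0.38 mM nitrate, and in 1 at 300 mM NaCl. In the starvation-low, salt-high direction it was so in 1 family at 0 mM nitrate and in 6 at 300 mM NaCl. The same count was not made over other families past the thresholds, so these counts are not read as a trait of the members. The families named below were chosen after their values were seen.

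Families 4848_c0 and 10765_c0 were high at intermediate nitrate and not without it. Family 4848_c0 had 0.37 at 0 mM, 43.8 at 0.38 mM and 44.7 at 0.75 mM nitrate, against 2.23 to 5.78 in replete cultures. Family 10765_c0 had 1.86, 17.34 and 54.97 at the same concentrations, against 2 to 3.27. By contrast, 2077_c0 had 269.12 at 0 mM and 232.95 at 0.75 mM but 71.12 at 0.38 mM, with 12.49 at 150 mM NaCl, against 66.33 to 98.59 in replete cultures.

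In the 6 starvation-low, salt-high families on the wrong side at 300 mM NaCl the high-salt difference came from the 600 mM library. Family 2800_c1 had 126.02 at 600 mM, 1.4 at 300 mM, and 3.93 to 9.46 in replete cultures, and family 7693_c0 had 129.07, 5.71 and 2.1 to 11.83. Families 3922_c0 and 603_c0 had 143.44 and 167.6 at 600 mM, 25.21 and 15.59 at 300 mM, and 25.55 to 31.13 and 24.11 to 30.15 in replete cultures. These last 2 also kept 34.1 and 35.33 at 0.75 mM nitrate, with 0.57 and 3.82 at 0 mM.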
